A study of Mus musculus with 8 samples.

Results

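The 10 genes followed here carry amino acids across the plasma membrane, and their signals were read in mouse embryonic stem (ES) cells on 8 Affymetrix arrays. The genes are Slc7a1, Slc7a3, Slc7a5, Slc3a2, Slc7a11, Slc1a4, Slc1a5, Slc38a1, Slc38a2 and Slc6a9. They were chosen by name for what they encode, but with earlier results of these data known. How many of them changed is therefore no independent test. Every probe set whose annotation gives exactly 1 of these symbols was read, which gave 20 probe sets for the 10 genes, of 45037 probe sets and 18193 genes in all. The arrays compare 4 samples given an esiRNA against Ctr9, a subunit of the Paf1 complex of transcription elongation, with 4 samples given an esiRNA against luciferase, which ES cells do not encode. Such an agent holds many different siRNAs, made by enzymatic cutting of 1 long double-stranded RNA, that all target the same transcript. All 8 samples were ES cells of the strain labelled Oct4-Gip at passage 25, all were transfected by lipofection, and all were collected on day 4. The design text of the series gives 4 against 4 transfections, but the labels do not say that the samples were separate cultures. The p-values therefore cover the spread between these samples only, which may be technical.

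Most amino acids enter a cell through a few families of membrane proteins. Slc7a1 and Slc7a3 carry cationic amino acids such as arginine and lysine. Slc7a5 and Slc7a11 are light chains that reach the membrane bound to the heavy chain Slc3a2: the first exchanges large neutral amino acids such as leucine, and the second imports cystine for glutathione synthesis. Slc1a4 and Slc1a5 exchange small neutral amino acids and glutamine with sodium, Slc38a1 and Slc38a2 take up glutamine and alanine together with sodium, and Slc6a9 carries glycine. Several of these genes are known targets of Atf4, a transcription factor made when cells lack amino acids. It binds C/EBP-ATF response elements.

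The Ctr9 transcript itself differed little on these arrays, so it gives only a weak check of the labels, and the groups below are those the labels name. Of 5 Ctr9 probe sets, the brightest differed by -0.09 (exact two-sided permutation p = 0.0857), 2 fell by 0.15 and 0.18, and a dimmer one was higher by 0.29 (limma adjusted p under 0.05), while the fifth did not pass. Leaving out 1 array ended each of these 3 calls: that of -0.15 held only without Ctr9 esiRNA array 1 or luciferase array 3, that of -0.18 was lost without Ctr9 esiRNA array 3 or 4 or luciferase array 1 or 2, and that of 0.29 without Ctr9 esiRNA array 2 or 4 or luciferase array 1 or 2.

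Of the 10 transporter genes, 7 were lower with Ctr9 esiRNA on their brightest probe set: Slc7a1, Slc1a4, Slc1a5, Slc7a3, Slc6a9, Slc7a5 and Slc3a2 (limma, Benjamini-Hochberg adjusted p under 0.05 over all probe sets). None was higher, and Slc38a1, Slc38a2 and Slc7a11 did not pass the test. Among all 18193 genes read in the same way, 15.0% were lower and 15.8% were higher. The largest difference was that of Slc7a1, whose signal fell by 51.3%. Over the 10 genes the median difference was -0.40 on the log2 scale, against 0.0036 over all genes. All 4 Ctr9 esiRNA values lay below all 4 luciferase esiRNA values for the same 7 of the 10 genes, as for 17.8% of all genes. All 20 probe sets had a value in every array, and 11 of the 20 were lower and none was higher, against 13.1% lower and 11.8% higher among all probe sets. The 11 are all among the 15 probe sets that read above 5.75, the median of all values. None of the 5 dimmer ones passed. On their brightest probe set, 9 of the 10 genes read above that median with luciferase esiRNA. So did 11772 of all genes, of which 21.6% were lower and 20.3% higher.

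The RefSeq promoter table of GRCm38.p6 holds 9 windows for 6 of the 10 genes, each running from 250 bases before a transcription start to 50 after it. Each was searched on both strands for the C/EBP-ATF response element, TGATGNAA, and for the core of the antioxidant response element, TGACNNNGC, the site of the oxidative stress factor Nfe2l2. The first motif was found for Slc7a11 and Slc1a4. Of all 32851 windows 3.97% hold it, and of all 27025 genes with a window 4.51% do. The second was found for Slc7a1, Slc38a2 and Slc6a9, and 12.4% of all windows and 14% of those genes hold it. Slc6a9 has 3 windows and Slc7a1 has 2, which gives them more places for a match. No match overlapped another. Slc3a2 and the second Slc7a1 window held neither motif. Stretches of 4 windows are shown because they pair members that were lower, Slc1a4 and Slc7a1, with members that did not pass, Slc7a11 and Slc38a2, for each motif. Each runs from 150 bases before the start to the 20th base transcribed, on the gene's minus strand, with the motif matches in capitals.
Slc7a11, chr3:50443594-50443763: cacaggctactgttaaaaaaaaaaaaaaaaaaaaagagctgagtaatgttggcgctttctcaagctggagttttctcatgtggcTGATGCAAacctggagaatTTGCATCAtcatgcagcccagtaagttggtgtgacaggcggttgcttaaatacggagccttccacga
Slc1a4, chr11:20332694-20332863: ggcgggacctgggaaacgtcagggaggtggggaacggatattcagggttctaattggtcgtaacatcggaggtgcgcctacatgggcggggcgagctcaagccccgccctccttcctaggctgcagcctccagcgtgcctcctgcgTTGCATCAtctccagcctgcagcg
Slc7a1, chr5:148399885-148400054: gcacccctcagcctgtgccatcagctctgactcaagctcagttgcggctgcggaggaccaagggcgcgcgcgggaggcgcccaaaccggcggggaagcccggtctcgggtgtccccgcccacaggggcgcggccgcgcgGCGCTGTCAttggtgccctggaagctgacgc
Slc38a2, chr15:96699709-96699878: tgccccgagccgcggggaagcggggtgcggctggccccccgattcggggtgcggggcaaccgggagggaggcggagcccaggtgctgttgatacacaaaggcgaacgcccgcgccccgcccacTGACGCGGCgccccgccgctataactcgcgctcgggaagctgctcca

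In the Slc7a11 window the C/EBP-ATF element occurs in both orientations, 66 to 59 and 47 to 40 bases before the start. In the Slc1a4 window it lies across the start itself, from 4 bases before it to the 4th base transcribed, on the opposite strand. The antioxidant element core lies 11 to 3 bases before the Slc7a1 start on the opposite strand and 27 to 19 bases before the Slc38a2 start on the gene's own strand. A match describes the letters only; binding was not measured here.

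The cationic amino acid carriers were both lower. The brightest of 3 Slc7a1 probe sets read 9.57, 9.55, 9.51 and 9.63 in the Ctr9 esiRNA arrays, against 10.46, 10.72, 10.60 and 10.64 in the luciferase esiRNA arrays (log2 signal). All 4 Ctr9 esiRNA values lay below every luciferase value, with a gap wider than the spread of either group. The mean was 9.57 ± 0.052 with Ctr9 esiRNA and 10.60 ± 0.11 with luciferase esiRNA (SD, n = 4 each). These differ by -1.04 on the log2 scale (SE 0.061, limma adjusted p = 1.85e-06). Slc7a1 ranked at place 52 from the lowest difference among the 18193 genes. A second Slc7a1 probe set, made from the same sequence record, read 9.50 ± 0.039 with Ctr9 esiRNA and 10.39 ± 0.052 with luciferase esiRNA (SD, n = 4 each; difference -0.89, SE 0.047). The third lies near the lower end of the arrays, at 4.70 ± 0.081 with Ctr9 esiRNA and 4.93 ± 0.21 with luciferase esiRNA (SD, n = 4 each), and did not pass (-0.22, limma adjusted p = 0.117), although it did without luciferase arrays 3 and 4 (-0.36, adjusted p = 0.0379).

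Slc7a3, a second arginine and lysine carrier, has 1 probe set. It read 11.16, 11.21, 11.19 and 11.20 in the Ctr9 esiRNA arrays, against 11.69, 11.73, 11.73 and 11.82 in the luciferase esiRNA arrays. The groups did not overlap, and the Ctr9 esiRNA arrays lay close together (SD 0.023). The difference was -0.55 (SE 0.046, limma adjusted p = 1.61e-05), and the signal fell by 31.8%. To set the changes of both carriers against each other, the log2 signal of Slc7a3 was subtracted from that of Slc7a1 in each array. The result was -1.68 to -1.57 with Ctr9 esiRNA and -1.23 to -1.01 with luciferase esiRNA, so the change of Slc7a1 minus that of Slc7a3 was -0.49 (SE 0.054). The exact two-sided permutation p was 0.0286, the smallest that 4 against 4 arrays allows, and 0.114 after Benjamini-Hochberg adjustment over the 4 pairs of related members compared in this way. The pairs were chosen with the values known.

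**Figure D1:**
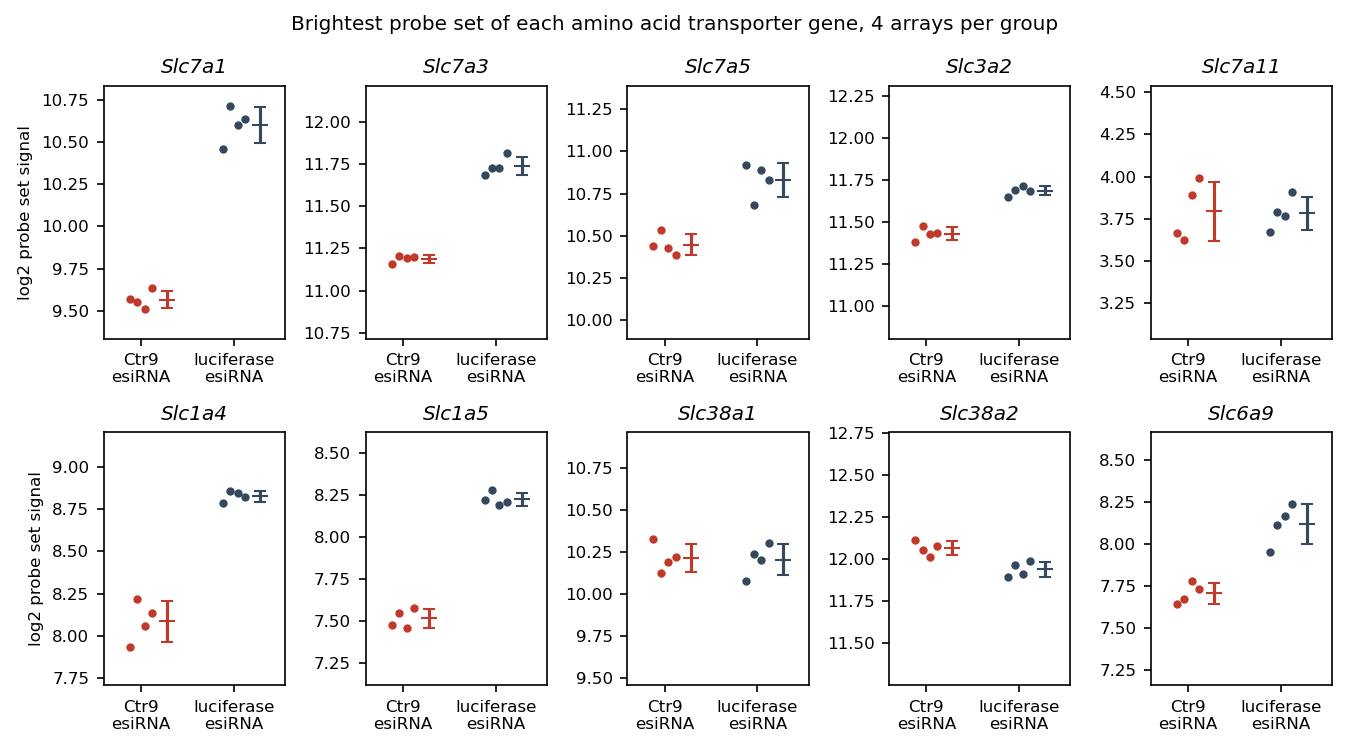
Log2 signal of the brightest probe set of each of the 10 transporter genes in the 4 Ctr9 esiRNA arrays (red, left) and the 4 luciferase esiRNA arrays (dark, right); bars are mean and SD (n = 4) and every panel spans the same number of log2 units. For 7 genes the plot has all red points below all dark points, for Slc38a2 all red points lie slightly above, and for Slc38a1 and Slc7a11 they overlap.

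Slc1a4 and Slc1a5, the sodium-dependent exchangers of small neutral amino acids, were both lower. The brightest Slc1a4 probe set read 7.93, 8.22, 8.06 and 8.13 in the Ctr9 esiRNA arrays, against 8.79, 8.86, 8.85 and 8.82 in the luciferase esiRNA arrays. The luciferase arrays lay close together, and the Ctr9 esiRNA arrays, all lower, spread more widely (SD 0.12 against 0.032). The difference was -0.74 (SE 0.063, limma adjusted p = 1.89e-05). Both other Slc1a4 probe sets fell too, by 0.76 (SE 0.069) and 0.49 (SE 0.062), so all 3 passed. Slc1a5, which carries glutamine, read 7.48, 7.55, 7.46 and 7.58 with Ctr9 esiRNA, against 8.22, 8.28, 8.19 and 8.21 with luciferase esiRNA. The groups were far apart, with a difference of -0.71 (SE 0.047, limma adjusted p = 4.16e-06). Its other probe set is dim, at 5.41 ± 0.19 with Ctr9 esiRNA and 5.48 ± 0.17 with luciferase esiRNA (SD, n = 4 each), and did not pass (-0.07, limma adjusted p = 0.710). The changes of Slc1a4 and Slc1a5 differed by -0.04 (SE 0.050, exact two-sided permutation p = 0.514; adjusted over the 4 pairs, p = 0.514).

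The heavy chain Slc3a2 and its leucine-carrying light chain Slc7a5 were both lower by smaller amounts. Slc7a5 read 10.44, 10.54, 10.43 and 10.39 in the Ctr9 esiRNA arrays, against 10.92, 10.68, 10.89 and 10.83 in the luciferase esiRNA arrays. The second luciferase array was the lowest of its group and still above every Ctr9 esiRNA array. The difference was -0.38 (SE 0.061, limma adjusted p = 0.00116). Slc3a2 read 11.38, 11.47, 11.43 and 11.44 with Ctr9 esiRNA, against 11.65, 11.69, 11.71 and 11.69 with luciferase esiRNA. Both groups were tight and did not overlap, with a difference of -0.26 (SE 0.043, limma adjusted p = 0.00166) and a signal that fell by 16.2%. Each gene has 1 probe set. The change of Slc3a2 minus that of Slc7a5 was 0.13 (SE 0.063, exact two-sided permutation p = 0.114; adjusted over the 4 pairs, p = 0.152). With each of the 8 arrays left out it ran from 0.09 to 0.18 (exact two-sided permutation p from 0.0286 to 0.257, unadjusted). The 0.18 and the lowest of these p-values came without luciferase array 2, so they are the extreme of the leave-outs.

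The cystine carrier Slc7a11, the other light chain, read near the bottom of the arrays in both groups. Its brighter probe set read 3.66, 3.62, 3.89 and 3.99 in the Ctr9 esiRNA arrays, against 3.67, 3.79, 3.76 and 3.91 in the luciferase esiRNA arrays. These values overlap and lie below 4.21, the lower quartile of all probe sets. The difference was 0.01 (limma 95% interval -0.19 to 0.20, adjusted p = 0.955), and the dimmer probe set differed by -0.10 (interval -0.27 to 0.07, adjusted p = 0.393). Signals this low are compressed by the authors' processing, so the interval bounds the difference of the signals and not that of the transcript.

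Slc38a1 and Slc38a2, the sodium-coupled carriers of glutamine and alanine, did not pass the test in any direction. The brighter Slc38a1 probe set read 10.32, 10.13, 10.19 and 10.22 in the Ctr9 esiRNA arrays, against 10.08, 10.24, 10.20 and 10.30 in the luciferase esiRNA arrays. The groups overlapped fully, and limma's 95% interval ran from -0.13 to 0.15 on the log2 scale (adjusted p = 0.925). A second Slc38a1 probe set differed by 0.01 (interval -0.15 to 0.18). Slc38a2 read 12.11, 12.05, 12.01 and 12.08 in the Ctr9 esiRNA arrays, against 11.89, 11.96, 11.91 and 11.99 in the luciferase esiRNA arrays. Here the Ctr9 esiRNA arrays were all slightly higher, by 0.13 (SE 0.046, interval 0.02 to 0.23), with a limma adjusted p of 0.0711. The call changed with the fit: the adjusted p was 0.00338 with a prior that both follows the signal level and is robust to outlying probe sets, and 0.0208 among the brighter 22518 probe sets. Another Slc38a2 probe set went the other way (-0.09, adjusted p = 0.305), and the third, dim one differed by 0.11 (adjusted p = 0.454; without luciferase array 4, 0.21 and adjusted p = 0.0449); these last 2 were made from the same sequence record. The change of Slc38a1 minus that of Slc38a2 was -0.12 (SE 0.040, exact two-sided permutation p = 0.0571, adjusted over the 4 pairs p = 0.114). With each of the 8 arrays left out it ran from -0.14 to -0.09 (exact two-sided permutation p from 0.0286 to 0.114, unadjusted). The -0.14 and the lowest of these p-values came without luciferase array 1, so they are the extreme of the leave-outs.

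The glycine carrier Slc6a9 was lower on both of its probe sets. The brighter one read 7.64, 7.67, 7.78 and 7.74 in the Ctr9 esiRNA arrays, against 7.95, 8.12, 8.17 and 8.24 in the luciferase esiRNA arrays. The groups were separate, with a difference of -0.41 (SE 0.065, limma adjusted p = 0.00112). The second read 6.83 ± 0.053 with Ctr9 esiRNA and 7.05 ± 0.083 with luciferase esiRNA (SD, n = 4 each), which differ by -0.22 (SE 0.055, limma adjusted p = 0.0140). The call on that second probe set ended without luciferase arrays 3 and 4 (-0.15, adjusted p = 0.122).

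**Figure D2:**
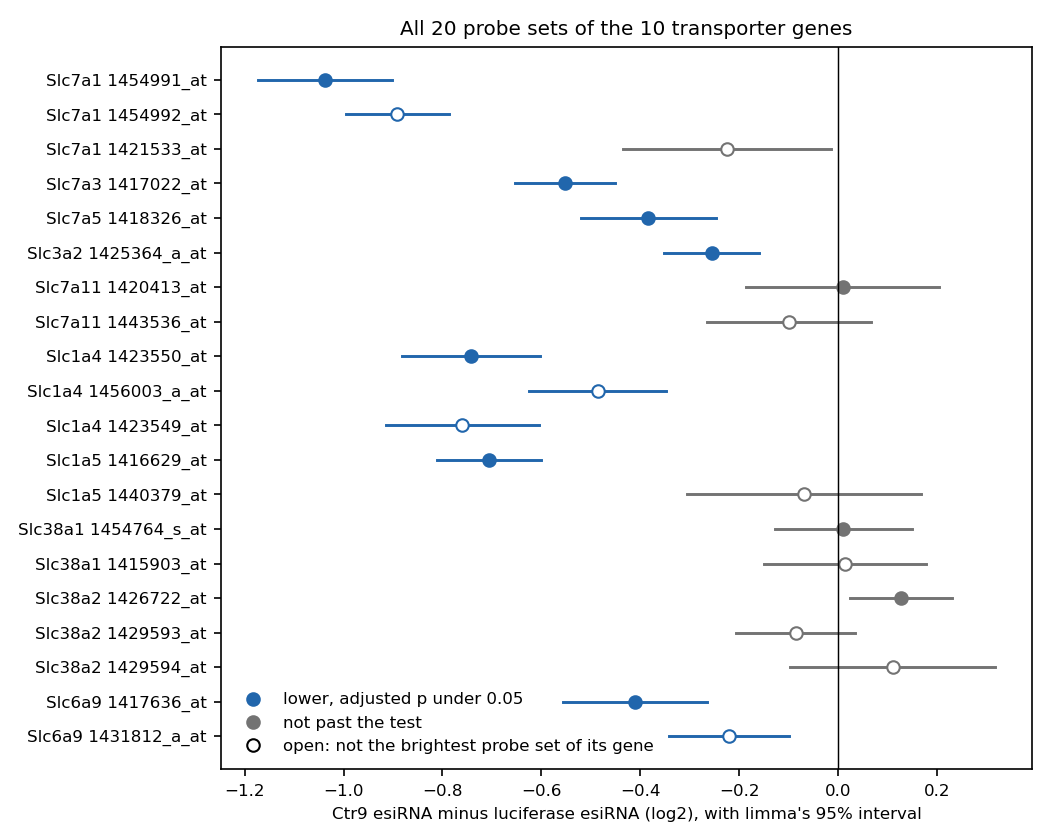
Difference of each of the 20 probe sets (Ctr9 esiRNA minus luciferase esiRNA, log2; lines are limma's 95% intervals); filled points are the brightest probe set of each gene and blue marks those that passed the test. The 11 blue points run from -1.04 for Slc7a1 to -0.22 for Slc6a9, and the grey ones belong to Slc7a11, Slc38a1, Slc38a2 and 1 dim probe set each of Slc7a1 and Slc1a5.

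The 7 genes that fell did so in every Ctr9 esiRNA array. Taken as deviations from each gene's luciferase mean, their median was -0.59, -0.53, -0.55 and -0.54 in Ctr9 esiRNA arrays 1 to 4, and between -0.04 and 0.02 in the luciferase arrays. The 7 were chosen by their fall on these same arrays, so negative medians with Ctr9 esiRNA follow from the choice. Luciferase medians near 0 follow from the centring. The medians are therefore no separate support for the fall. In the Ctr9 esiRNA arrays the deviation closest to 0 was that of Slc3a2 in array 2, at -0.21. On every probe set they have, 5 of the 10 genes were lower: Slc7a3, Slc7a5, Slc3a2, Slc1a4 and Slc6a9. The first 3 have 1 probe set each, so for them this repeats the call on the brightest one. The share of all genes lower on every probe set was not computed. On the brightest probe set 15.0% of all genes were lower. With the mean over all of a gene's probe sets, the same 7 genes passed, with smaller differences for Slc7a1 (-0.72) and Slc1a5 (-0.39), whose dim probe sets then count equally. Slc7a1, Slc1a4, Slc1a5 and Slc7a3, 4 of the 10, were lower by at least 0.5 log2 units, against 2.82% of all genes.

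Other amino acid transporters moved in both directions. Of 44 listed genes, 42 had a probe set with a single symbol; 8 of these were higher, 5 were lower and 29 did not pass, with a median difference of -0.0041 against 0.0036 over all genes. Among all genes 15.8% were higher and 15.0% lower, and the counts of the 42 lie near these shares. With luciferase esiRNA 23 of the 42 read above the median of all values, and 6 of these were higher and 4 lower. Among all genes above that median 20.3% were higher and 21.6% lower. Of the 19 dimmer transporters 2 were higher and 1 lower. Slc1a1, a glutamate, aspartate and cystine carrier, was lower, at 6.13 ± 0.061 with Ctr9 esiRNA and 7.15 ± 0.16 with luciferase esiRNA (SD, n = 4 each; -1.02, SE 0.078, limma adjusted p = 1.02e-05), and its other 2 probe sets were lower too. Slc38a9, a lysosomal arginine sensor (-0.30), and Slc38a5, a glutamine carrier (-0.41), were also lower. The count of 5 lower genes dropped to 3 without Ctr9 esiRNA array 1 or 4, without luciferase array 4, and without luciferase arrays 3 and 4 together, where the Slc38a5 call ended (adjusted p = 0.0756). Slc7a7, a light chain that exchanges cationic for neutral amino acids, had the smallest p of the list. It read 10.99 ± 0.025 with Ctr9 esiRNA and 10.24 ± 0.047 with luciferase esiRNA (SD, n = 4 each), a rise of 0.75 (SE 0.044, limma adjusted p = 1.99e-06), and its second probe set rose by 0.75. Slc1a6 (0.57) and Slc1a3 (0.45), both glutamate carriers, Slc38a3 (0.29), a glutamine carrier, Slc7a8 (0.28), a light chain for neutral amino acids, Slc38a4 (0.28) and the lysosomal exporter Slc66a1 (0.26) rose as well. The Slc38a3 and Slc38a4 calls rest on 1 of 2 probe sets each. Of the other probe sets, 5 of 6 for Slc38a9 (-0.37 to -0.13 over all 6) and 3 of 5 for Slc1a3 (-0.02 to 0.39 over all 5) did not pass. The Slc7a8 call ended without luciferase arrays 3 and 4 (adjusted p = 0.0586). Slc1a6, Slc38a5, Slc7a8 and Slc66a1 have 1 probe set each. The first 3 of these read below the median of all values with luciferase esiRNA, at 5.40, 5.63 and 4.39.

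The known light chains of Slc3a2 did not share a direction. Of 6, Slc7a5 was lower, Slc7a6 (0.21, SE 0.053), Slc7a7 and Slc7a8 were higher, and Slc7a10 and Slc7a11 did not pass. Slc7a8 and Slc7a10 read low on the array in both groups, at 4.67 and 4.94 with Ctr9 esiRNA and at 4.39 and 4.87 with luciferase esiRNA.

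Regulators and targets of the amino acid response were lower in 8 of 12 cases and higher in none, with a median difference of -0.36. All 12 read above the median of all values with luciferase esiRNA, where 21.6% of genes were lower and 20.3% higher. Among all genes 15.0% were lower and 15.8% higher, and these shares also apply to the lists that follow. The transcription factor gene Atf4 read 10.97 ± 0.091 with Ctr9 esiRNA and 11.86 ± 0.037 with luciferase esiRNA (SD, n = 4 each; -0.89, SE 0.055, limma adjusted p = 2.46e-06), and its other 2 probe sets fell by 0.26 to 0.53. Chac1, a glutathione-degrading enzyme (-1.20), Ddit3, which encodes Chop (-1.14), and Trib3, a pseudokinase (-1.10), fell as well. A further list covers glutathione, cystine use and oxidative stress, the last with Nqo1 and Hmox1. Of its 8 measured genes, 3 were lower and 2 higher: Nqo1 (-0.60), Gss (-0.38) and Gpx4 (-0.34) fell, and Hmox1 (0.40) and Gclm (0.28) rose. Of 8 measured genes of amino acid use, Bcat1, which transaminates branched-chain amino acids (-0.68), and Got1 (-0.31) fell, and Odc1, the first enzyme of polyamine synthesis (0.21), Gldc (0.19) and Arg2 rose. With luciferase arrays 1 and 2 left out, the Gldc call ended (limma adjusted p = 0.0719), and only 1 of these genes was then higher in place of 3. Without luciferase arrays 3 and 4, 1 gene of the glutathione, cystine use and oxidative stress list was higher in place of 2.

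**Figure D3:**
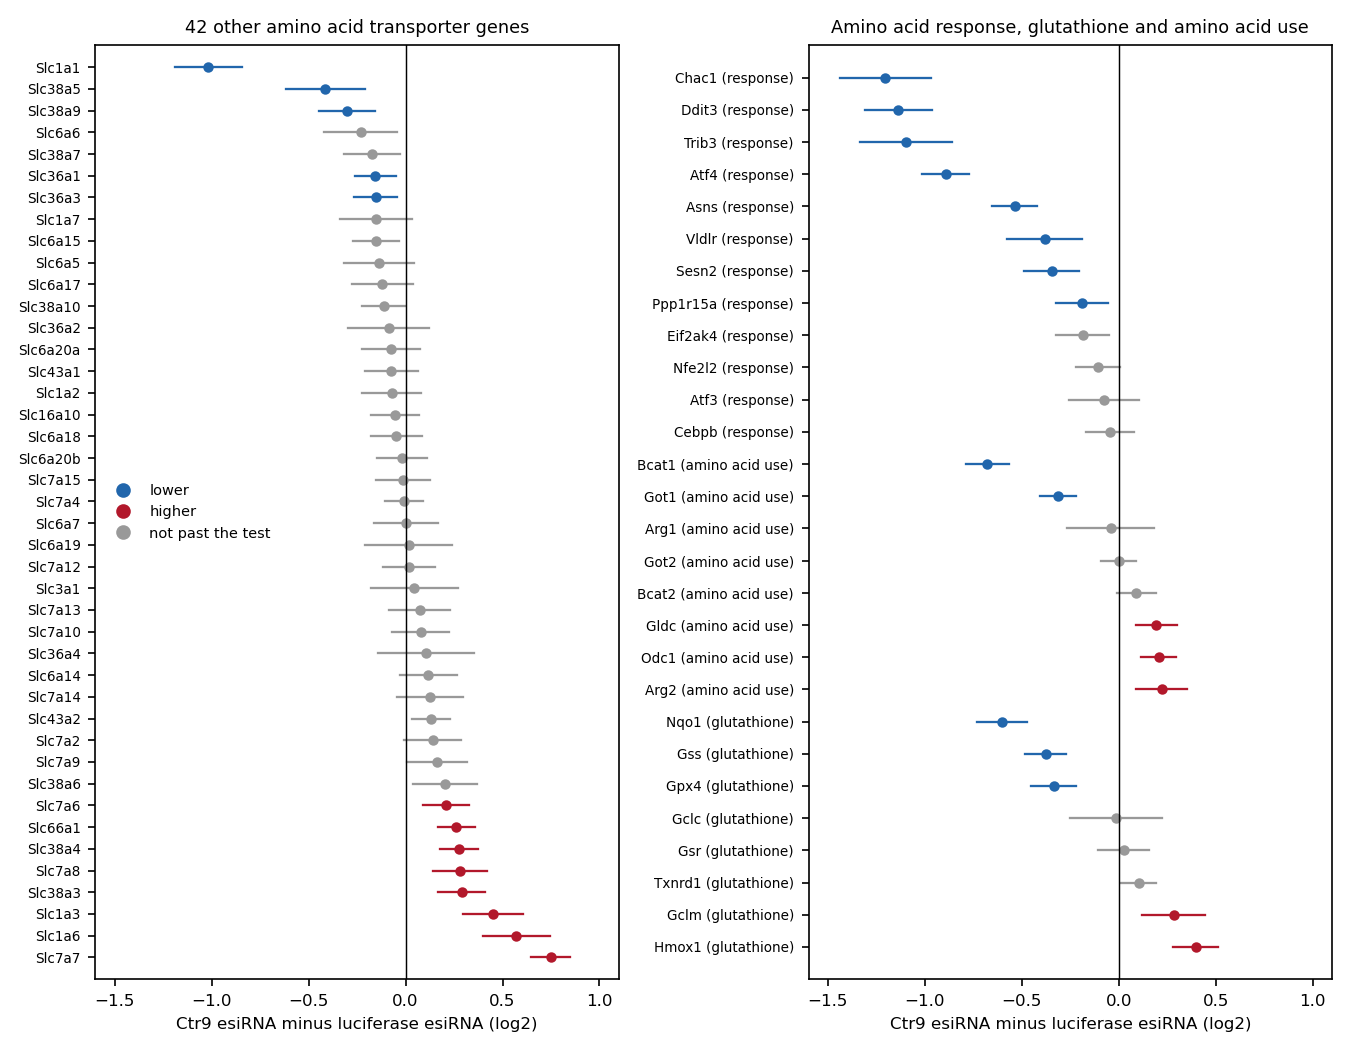
Difference of each gene's brightest probe set (Ctr9 esiRNA minus luciferase esiRNA, log2, with limma's 95% interval) for the 42 other transporter genes (left) and for the amino acid response, glutathione and amino acid use genes (right). Genes marked glutathione include those of cystine use and oxidative stress. Blue is lower, red higher and grey not past the test. The transporters on the left fall on both sides of 0, with Slc1a1 at -1.02 and Slc7a7 at 0.75, and all 12 response genes on the right lie below 0.

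ES cell markers such as Pou5f1 and Nanog were bright in all arrays, yet 4 of 8 were lower with Ctr9 esiRNA and none higher: Esrrb (-1.10), Zfp42 (-0.46), Nanog (-0.44) and Pou5f1 (-0.20). Among all genes 15.0% were lower and 15.8% higher, and among those above the median of all values 21.6% and 20.3%. The summed signal of 8 ES markers was 16.1 to 16.2 with Ctr9 esiRNA and 16.3 to 16.4 with luciferase esiRNA (log2). That of 8 trophectoderm markers was 12.3 to 12.4 with Ctr9 esiRNA and 11.0 to 11.3 with luciferase esiRNA, with 6 of 8 higher. The keratins Krt8 (2.61) and Krt18 (2.39) rose most and weigh most in this sum. Tfap2c (-0.135) and Elf5 (0.05) did not pass. The 7 primitive and visceral endoderm markers summed to 9.12 to 9.29 with Ctr9 esiRNA and 8.62 to 8.72 with luciferase esiRNA. Of these 7, 2 were higher, Foxa2 (1.98) and Dab2 (1.26). The rest did not pass, with Gata6 (-0.12), Sox17 (-0.24) and Afp (-0.17) below 0. The 8 fibroblast markers summed to 8.64 to 8.70 with Ctr9 esiRNA and 8.44 to 8.54 with luciferase esiRNA, with 2 of 8 higher. These 2 were Dcn and Col1a2, at 5.72 and 6.12 with luciferase esiRNA. With luciferase esiRNA only 3 of the 8 fibroblast and 3 of the 7 endoderm markers read above the median of all values, so dim signals enter both sums. The part of these cell types in the transporter differences was not tested. In a bulk sample, fewer cells that make a transcript and less of it per cell cannot be told apart.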

How the data were processed

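The values are log2 probe set signals as deposited by the authors for 8 one-colour Affymetrix arrays. GCOS 1.4 and RMA are named in the submitters' processing notes; for their settings the sources used here have no entry. RMA gives all arrays 1 distribution of probe intensities before these are summarised into probe sets. A shift common to most transcripts therefore does not show, and low signals are compressed. The upper quartiles of the probe set values still differed slightly between arrays, from 8.10 to 8.15. The number of arrays limits the precision.

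From 45101 rows, 64 control probe sets were left out. Of the rest, 34945 have 1 gene symbol, 932 several and 9160 none in the platform annotation. For 34741 of those with 1 symbol the Entrez identifier was found in the GRCm38.p6 table, and the symbol given there was used. Groups were compared on all 45037 probe sets with limma 3.58.1 in R 4.3.3 (lmFit, eBayes without trend) and Benjamini-Hochberg adjustment at 0.05. SE and 95% intervals are limma's moderated ones, except for pair differences, whose SE comes from the arrays. A gene was read by its brightest 1-symbol probe set. The fit was tested on simulated data.

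The named genes are all members, up to 10 other transporters with the smallest adjusted p, and up to 4 genes of each further list; Slc7a6, Slc7a10, Arg2 and the other genes in plots were added after their values were seen. Members and lists were chosen with earlier results of these data known. Same-numbered arrays of the 2 groups did not deviate together, so no pairing was assumed. Alternatives were other scalings, priors, filters, thresholds, probe set rules, a replicate block and left-out arrays. Their use for the 3 further lists and the pairs was chosen after seeing the data. The luciferase arrays lay apart on the second principal component, an axis holding 8.91% of the variance. Arrays 1 and 2 were at 11.3 and 15.7, and arrays 3 and 4 at -10.6 and -16.3. The Ctr9 esiRNA arrays lay between, from -4.99 to 5.66. The cause of this split was not tested.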

Additional observations from a re-analysis of the deposited data

How the results depend on the processing

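The 7 lower member genes passed with each array left out (7 each time, with 11 to 12 probe sets, 0 to 1 of them higher), under the 3 other scalings and with the mean over probe sets. Requiring at least 0.5 log2 units left 4 member genes and 6 probe sets, all lower, and 3 other transporters, 2 higher and 1 lower. With a trended, robust prior, and among the brighter probe sets only, 1 member was higher, Slc38a2. Of the other transporters, 3 were lower in place of 5 at an adjusted p under 0.01, with cyclic loess, with the replicate block and without luciferase arrays 3 and 4, and 8 with the trended, robust prior (3 to 5 with each array left out). At an adjusted p under 0.01, 3 genes of amino acid use passed, 1 of them higher, as without luciferase arrays 1 and 2. For glutathione, cystine use and oxidative stress, 1 gene was higher at that threshold, with the mean over probe sets and without luciferase arrays 3 and 4. The cause of these shifts was not tested.

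Differences near 0 changed sign, none of them past the test. With arrays left out one at a time, the dim Slc1a5 probe set ran from -0.15 to 0.0031, the brighter Slc38a1 probe set from -0.031 to 0.043 and the second from -0.028 to 0.069, the brighter Slc7a11 one from -0.056 to 0.066, and the change of Slc1a4 minus that of Slc1a5 from -0.071 to 0.0022. Without luciferase arrays 1 and 2 the dim Slc1a5 probe set was at 0.033, the brighter Slc38a1 one at -0.035 and the Slc7a11 one at -0.043, and without arrays 3 and 4 the second Slc38a1 one was at -0.11. Same-numbered arrays did not pair: their deviations correlated between -0.077 and 0.062, and 2 of 4 Ctr9 esiRNA arrays correlated best with the luciferase array of their own number. With the replicate block, 7 member genes and 11 probe sets were lower. Low signal limits Slc7a11 and the dim probe sets, and 8 arrays limit the precision.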
